A study of Mus musculus with 4 samples.

Results

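The 300 windows of 1 kb with the most Input reads were examined, out of 2472328 windows into which the 19 autosomes of mm9 were cut from position 0. Of all these windows, 2242752 held a read of any library and 1748349 held an Input read. Each read was counted at its 5′ end moved 100 bp along its strand, and ties in the Input count were settled by chromosome and then by start. The windows were thus chosen by their Input counts, which are given as a description. The reads of the other 3 libraries took no part in the choice.

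The libraries came from mouse R1 embryonic stem cells (129SV), used at passages 13 to 18 and grown with 1000 U/ml of leukaemia inhibitory factor on gelatin. Chromatin fixed with 1% formaldehyde was precipitated in 3 ways. The LSD1 library (5833862 reads) came from an antibody that the labels name for the demethylase LSD1, the H3K4me2 library (6416657 reads) from one for histone H3 dimethylated at lysine 4, and the IgG library (4755619 reads) from control immunoglobulin. DNA without immunoprecipitation served as Input (3801082 reads). Each group was 1 library, so nothing here is checked by a replicate or carries a p-value, and each difference is one between libraries. The catalogue number that the labels pair with LSD1 is known from another supplier, for an antibody to trimethylated lysine 27 of histone H3, so the name LSD1 rests on the label alone. Values are reads, or reads divided by the library total and multiplied by 1000000 (RPM). Intervals are exact 95% intervals and, like the floor of 3 reads that a count of 0 allows, cover counting error only.

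Input is DNA sheared from the same chromatin and not enriched for any protein. Its read density depends, among other things, on how many copies of a sequence the cells hold. It also depends on how well reads of that sequence can be placed. Genomes carry sequences in far more copies than an assembly shows. Among them are the tandem ribosomal DNA repeats, which RNA polymerase I transcribes into the precursor of ribosomal RNA, and the satellite repeats around centromeres. Reads from many copies can then gather on the few copies in the assembly, depending on how an aligner treats reads with several placements. That treatment is not stated for these files, so counts and shared starts in such windows may include reads placed at random among copies or lack reads that were discarded. LSD1 removes methyl groups from histone H3 at lysine 4, and H3K4me2 marks promoters and enhancers. None of the files of aligned reads held a line for the mitochondrial genome, and the sequence of the windows was not analysed here.

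The 300 windows held 20612 LSD1 reads, 18327 H3K4me2 reads, 18620 IgG reads and 14272 Input reads. These were 0.353% of the LSD1 library, 0.286% of the H3K4me2 library, 0.392% of the IgG library and 0.375% of the Input library. Input counts ran from 12 to 424 per window with a median of 27, against a mean of 1.64 over all autosomal windows with a read. The excess was present in the libraries that the choice had not used. Per window, LSD1 stood 27.0-fold over its own autosomal mean (26.6 to 27.4), H3K4me2 21.8-fold (21.5 to 22.1) and IgG 29.998-fold (29.6 to 30.4). The medians per window were 35.5 LSD1 reads, 31 H3K4me2 reads and 34 IgG reads. The lowest counts were 1 in LSD1, 0 in H3K4me2 and 1 in IgG, and the highest were 753, 573 and 602 reads in the same order.

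**Figure D1:**
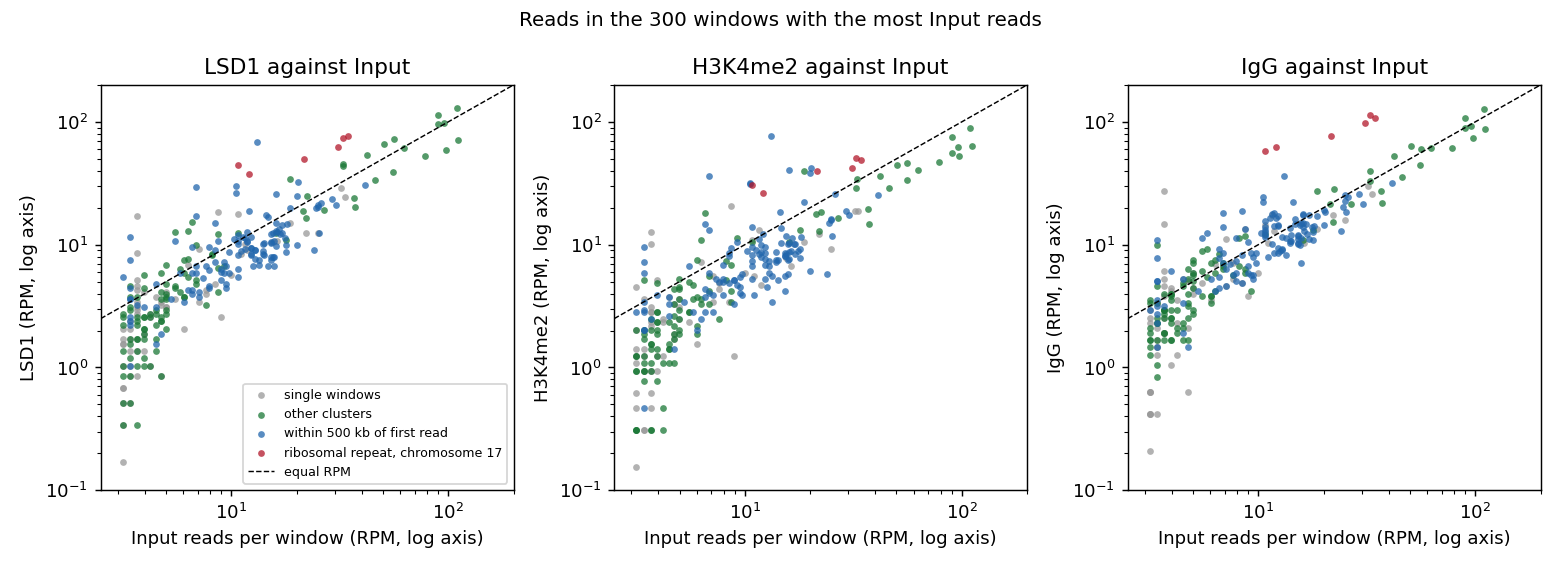
Reads in each of the 300 windows in LSD1, H3K4me2 and IgG (y axes, RPM, log scale) against Input (x axes, RPM, log scale). Points are windows coloured by position, the dashed line marks equal RPM, and 2 windows without an H3K4me2 read are missing from the middle panel. The 6 windows of the ribosomal repeat lie above the line in every panel, and many windows near the Input threshold lie below it.

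The threshold cut through a tie. At 12 Input reads there were 53 windows, of which 19 fell inside and 34 outside, and no window with 12 reads beyond chromosome 4 was kept. The last window inside, on chromosome 4 from 145030001 to 145031000, held 5 LSD1, 6 H3K4me2, 7 IgG and 12 Input reads. The next one outside, from 145037001 to 145038000 on the same chromosome, held 14 LSD1, 11 H3K4me2, 14 IgG and 12 Input reads. The tied windows had median IgG counts of 8 inside and 9 outside, and median LSD1 counts of 6 inside and 9 outside.

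Not every window of high Input was among the highest elsewhere. Among the 300 highest windows of LSD1, 135 (45.0%, interval 39.3 to 50.8) were also among the 300 of Input. The number was 60 (20%, 15.6 to 25.0) for H3K4me2 and 212 (70.7%, 65.2 to 75.8) for IgG. Each list took 300 of the 2242752 windows with a read. The count needed to enter differed, at 41 reads for LSD1, 74 for H3K4me2 and 18 for IgG. A window outside a list can therefore still hold an excess. Of the 300 windows of Input, 4 lay below the autosomal mean in LSD1, 11 in H3K4me2 and 5 in IgG. Below 5 times that mean lay 52, 76 and 42 in the same order. There were 60 windows in all 4 lists and 86 windows in the Input list alone. Those 86 had medians of 10.5 LSD1, 9 H3K4me2, 11 IgG and 14 Input reads, and IgG there was 5.09-fold over its autosomal mean (4.77 to 5.43). The choice also keeps windows whose Input count was high by counting error, and how many of the 86 are such windows was not tested. Across the 300 windows Spearman's rho with the Input count was 0.868 for LSD1, 0.849 for H3K4me2 and 0.878 for IgG. These are descriptions over windows of the same 4 libraries, many of them neighbours.

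The windows were strongly clustered. When windows whose starts lay within 10 kb were joined, they formed 103 clusters, of which 65 were 1 window and 14 held at least 5 windows. Those 14 clusters held 180 of the 300 windows. An adjacent window of the set lay next to 207 of the 300. The 10 clusters with the most Input reads held 147 windows and 71.8% of the Input reads in the set. Outside the windows the excess was far smaller. The choice fixes part of this, since no autosomal window outside the set held more than 12 Input reads. The fall in the other libraries, whose counts rose with Input across the set, is not independent of that. Windows 1 kb away averaged 6.31 LSD1 reads, 5.73 H3K4me2 reads, 6.004 IgG reads and 4.198 Input reads, which was 2.48-fold, 2.04-fold, 2.90-fold and 2.55-fold over the autosomal means. At 10 kb the excess was 1.27-fold in LSD1, 1.14-fold in H3K4me2, 1.23-fold in IgG and 1.17-fold in Input.

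**Figure D2:**
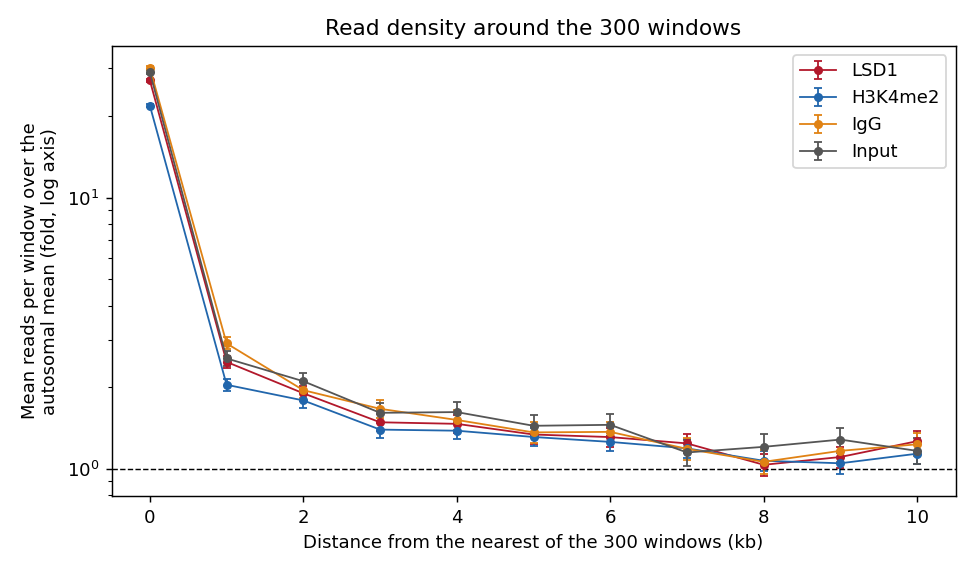
Mean reads per window over the autosomal mean of the same library (y axis, fold, log scale) at 0 to 10 kb from the nearest of the 300 windows (x axis, kb). Bars are exact 95% Poisson intervals, and the dashed line marks the autosomal mean. All 4 libraries stand above 20-fold in the windows and below 3-fold at 1 kb. Windows at 1 to 10 kb are outside the set and so held at most 12 Input reads, which fixes part of the drop.

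By chromosome, 84 of the 300 windows lay on chromosome 11, 41 on chromosome 4, 35 on chromosome 9, 24 each on chromosomes 1 and 8 and 22 on chromosome 2. Chromosomes 7 and 14 had none. The start of the chromosome, which in the mouse is next to the centromere, was a frequent place. Within 500 kb of the first aligned read of their chromosome lay 124 windows (41.3%, 35.7 to 47.1), against 0.356% of all autosomal windows with a read. They were spread over 8 chromosomes, but 77 lay at the start of chromosome 11. Without those 77 the share was 21.1%. With 1 window per cluster, the one with the most Input reads, it was 9.71%.

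The largest cluster lay on chromosome 11 from 3022001 to 3100000. It comprised 72 of the 78 windows in that stretch, with 4983 LSD1, 5075 H3K4me2, 4476 IgG and 3413 Input reads. Per window there were 11 to 401 LSD1 reads with a median of 57.5, 9 to 492 H3K4me2 reads with a median of 52, 7 to 172 IgG reads with a median of 59, and 13 to 91 Input reads with a median of 47.5. Over the cluster the ratio of RPM of LSD1 to IgG was 0.908 (0.871 to 0.945) and that of H3K4me2 to IgG was 0.840 (0.807 to 0.875). Single windows departed from this. The H3K4me2 to IgG interval lay above 1 in 7 of the 72 windows, below 1 in 34 and across 1 in 31, and the LSD1 to IgG interval lay above 1 in 3, below 1 in 14 and across 1 in 55. The window from 3093001 to 3094000 held 401 LSD1, 492 H3K4me2, 172 IgG and 50 Input reads, with ratios to IgG of 1.90 (1.59 to 2.29) for LSD1 and 2.12 (1.78 to 2.54) for H3K4me2. In the window from 3046001 to 3047000 there were 189 LSD1, 270 H3K4me2, 88 IgG and 77 Input reads, and the ratios were 1.75 (1.35 to 2.26) and 2.27 (1.78 to 2.93) in the same order. The window from 3093001 was the highest of the cluster in both ChIP libraries and in IgG, while its Input count was near the median of the cluster.

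**Figure D3:**
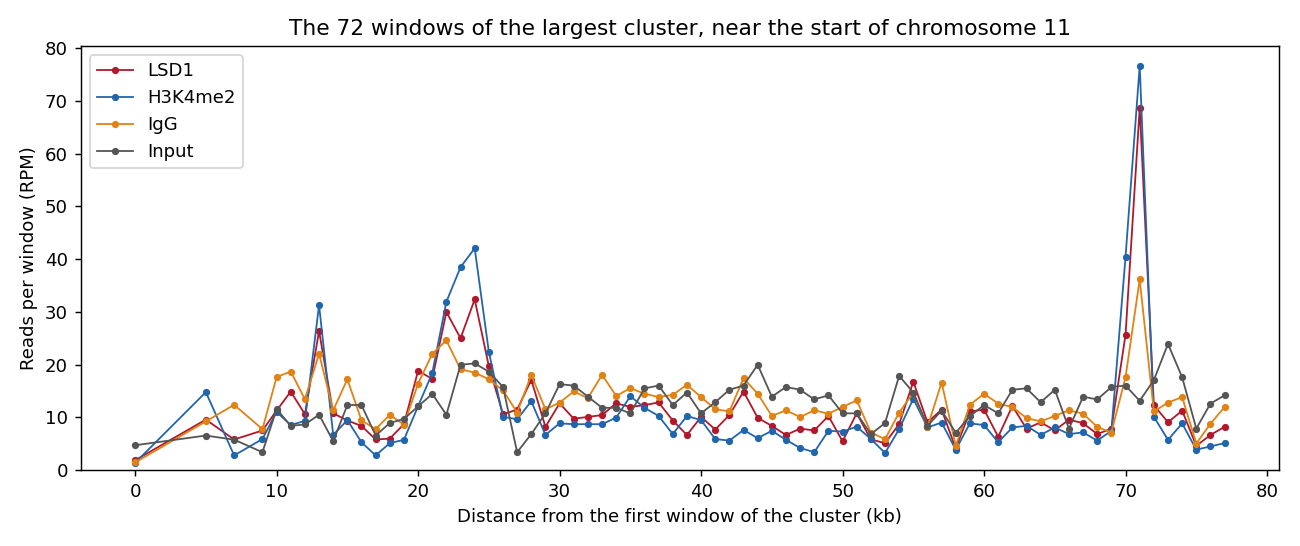
Reads per window (y axis, RPM) in the 72 windows of the largest cluster, by distance from its first window (x axis, kb); lines join neighbouring points, and 6 windows of the stretch that are not in the set have no point. LSD1 and H3K4me2 have their maximum in the same window, with 401 and 492 reads, where Input had 50.

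A smaller cluster of 5 windows lay before it on chromosome 11, from 3000001 to 3005000, with 193 LSD1, 157 H3K4me2, 160 IgG and 198 Input reads. On chromosome 9, 25 windows between 3000001 and 3039000 held 1679 LSD1, 1479 H3K4me2, 1463 IgG and 1423 Input reads. There LSD1 stood to IgG at 0.936 (0.872 to 1.00) and H3K4me2 at 0.749 (0.697 to 0.806). The starts of chromosomes 4 and 18 contributed 7 windows from 3008001 to 3019000 and 6 windows from 3004001 to 3011000. The stretch on chromosome 4 held 228 LSD1, 204 H3K4me2, 247 IgG and 224 Input reads, and that on chromosome 18 held 251 LSD1, 280 H3K4me2, 253 IgG and 222 Input reads.

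The ribosomal repeat on chromosome 17 gave 6 consecutive windows from 39980001 to 39986000, all in the set. From the first to the last they held 365, 434, 452, 221, 258 and 290 LSD1 reads, then 269, 323, 315, 169, 196 and 256 H3K4me2 reads. IgG had 470, 539, 516, 296, 275 and 367 reads in the same windows, and Input had 118, 124, 131, 46, 41 and 82. IgG was the highest library in each of the 6 windows in reads and in RPM, and Input the lowest in both. Over the repeat IgG exceeded Input 3.63-fold (3.31 to 3.99), with ratios of 3.15 to 5.36 in single windows. The LSD1 level there was 0.669 of the IgG level (0.630 to 0.709), and the H3K4me2 level was 0.460 of it (0.431 to 0.490). In fold over the autosomal mean the repeat stood at 132 in LSD1, 90.9 in H3K4me2, 198 in IgG and 55.0 in Input. The other 294 windows had an IgG to Input ratio of 0.941, against 1.04 (1.02 to 1.07) over all 300. The repeat therefore decided the side of 1 on which that ratio lay, and the choice by Input counts lowers it in either case.

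The window with the most Input reads was on chromosome 2 from 98502001 to 98503000. It held 413 LSD1, 408 H3K4me2, 414 IgG and 424 Input reads, near-equal counts from libraries whose totals differ. It belonged to a cluster of 6 windows ending at 98508000, with 1518 LSD1, 1459 H3K4me2, 1463 IgG and 1549 Input reads. The 10 windows with the most Input reads fell in only 5 clusters, since 3 belonged to this one and 4 to a cluster on chromosome 1. The others were the windows starting at 22444001 on chromosome 2, at 79650001 on chromosome 4 and at 35112001 on chromosome 9.

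Because copies with the same start and strand had been collapsed before deposit, a position on a strand can give at most 1 read per library, and a window of 1 kb at most 2000. How many of these starts the libraries shared differed greatly between clusters. In the cluster of chromosome 2 from 98502001 the 4 libraries used 1916 different starts, of which 1117 (58.3%) were used by all 4, and 87.1% of IgG starts were also LSD1 starts. The 2 windows of chromosome 9 from 35112001 to 35114000 used 376 starts, 63.8% of them in all 4 libraries, and held 340 LSD1, 322 H3K4me2, 315 IgG and 314 Input reads. In the cluster at the start of chromosome 9 the share was 25.4% of 2569 starts. In the largest cluster, on chromosome 11, it was 0.0182% of 16478 starts, and on the ribosomal repeat 0.260% of 5003. Over all 300 windows, 4.82% of 50682 starts were common to all libraries, 200 windows had no common start and 5 windows had at least 50%. The part of read density in this sharing was not tested. In the windows outside the set, 0.255% of IgG starts were also LSD1 starts, against 32.2% inside it when pooled. The median of single windows in the set was 7.09%, and the largest cluster had 6.01%.

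**Figure D4:**
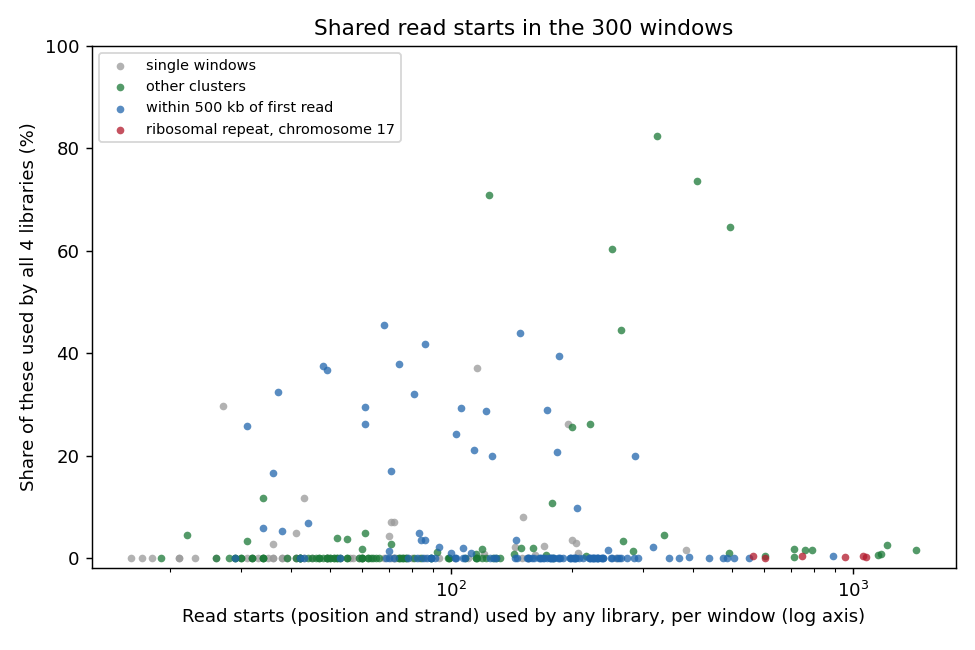
Share of read starts (position and strand) used by all 4 libraries (y axis, %) against the number of starts used by any library in the window (x axis, log scale), for the 300 windows coloured by position. Most windows lie near 0, while 5 windows in clusters of chromosomes 2 and 9 lie above 50%.

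Equal counts in libraries of these sizes would give an LSD1 to IgG ratio of 0.815 and an H3K4me2 to IgG ratio of 0.741. In the 5 windows with at least 50% of starts in all libraries, the ratios were 0.831 (0.771 to 0.896) for LSD1 and 0.740 (0.686 to 0.798) for H3K4me2. In the remaining 295 windows they were 0.908 (0.890 to 0.927) and 0.729 (0.713 to 0.744).

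Reads of both strands were usually present. The median share of plus-strand reads was 50% in LSD1, 48.4% in H3K4me2, 50% in IgG and 49.2% in Input, and in 277 of the 300 windows the Input share lay between 20% and 80%. Of the 23 others, 11 were past the same bound in the same direction in IgG and 0 past the opposite one. Some windows held their reads in a short stretch. In 36 windows at least 80% of Input reads fell within 200 bp, and in 25 of these the same was true of IgG. One of them was the window of chromosome 9 from 35112001, with 84.0% of its Input reads.

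The comparison of the ChIP libraries with IgG did not use the Input counts. Over the 300 windows the LSD1 to IgG ratio was 0.902 (0.885 to 0.920), against 1.00 in all other autosomal windows with a read and 0.902 (0.900 to 0.903) in those outside every peak. The H3K4me2 to IgG ratio was 0.729 (0.715 to 0.745), against 1.01 in all other windows and 0.788 (0.787 to 0.789) outside every peak. Relative to windows without a peak, LSD1 over all 300 was therefore at the same level within counting error and H3K4me2 was lower. Without the 6 windows of the ribosomal repeat LSD1 was at 0.938 (0.918 to 0.958), above that level, and H3K4me2 at 0.771 (0.754 to 0.787). The windows left include some that touched a peak, while that level was taken outside every peak. Library sizes were also taken from reads outside peaks and outside the set. Over all 300 windows the ratios were then 1.00 (0.981 to 1.02) for LSD1 and 0.926 (0.907 to 0.945) for H3K4me2. The ratio of LSD1 below 1 thus depends on the scaling. The 260 windows of the set outside every peak leave out the repeat. On total reads the ratios there were 0.904 (0.883 to 0.925) for LSD1 and 0.691 (0.674 to 0.708) for H3K4me2. That LSD1 ratio was at the level of other windows without a peak within counting error, and that of H3K4me2 was lower.

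**Figure D5:**
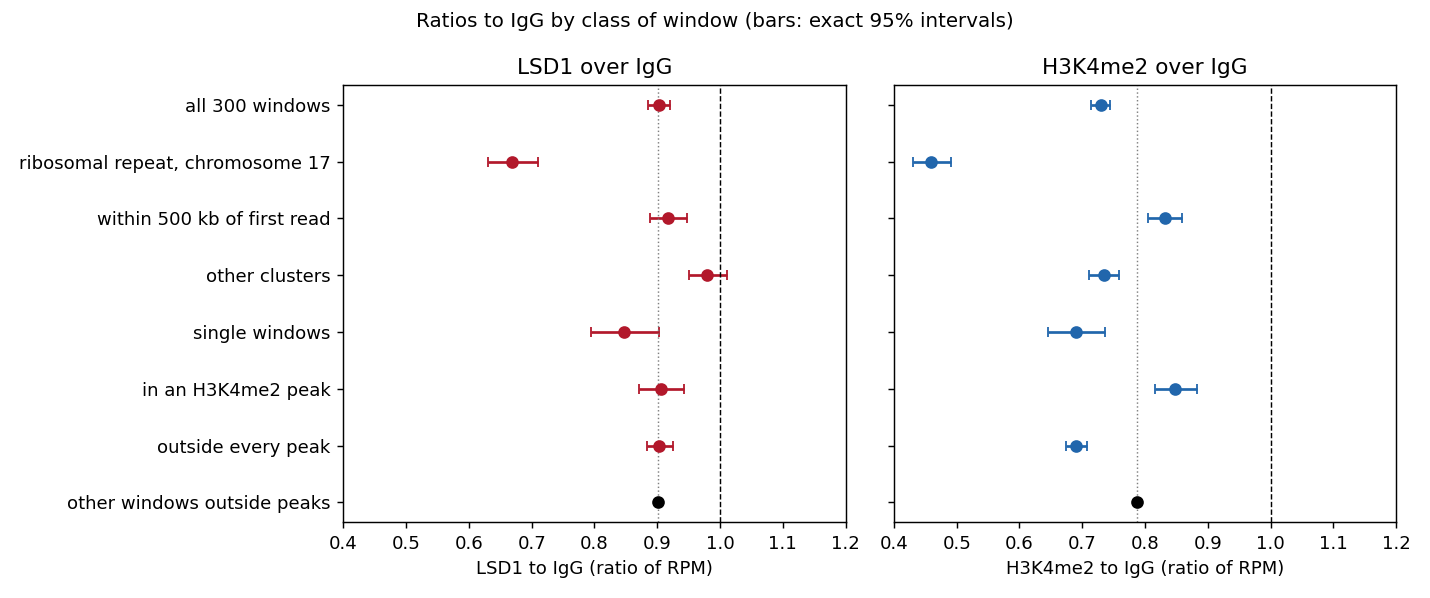
Ratio of RPM of LSD1 to IgG (left) and of H3K4me2 to IgG (right) for classes of the 300 windows (rows), with exact 95% intervals; the dashed line marks 1, and the dotted line and black point mark the 2188092 other windows with a read outside every peak. The ribosomal repeat is lowest in both panels, at 0.669 and 0.460.

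The classes by position differed. The 124 windows near a chromosome start had an LSD1 to IgG ratio of 0.918 (0.888 to 0.948) and an H3K4me2 to IgG ratio of 0.832 (0.805 to 0.860). Other clusters, with 107 windows, had 0.980 (0.9499 to 1.01) for LSD1 and 0.735 (0.711 to 0.759) for H3K4me2. The class of windows that stood alone held 63, without 2 lone windows counted near a chromosome start, and had 0.847 (0.795 to 0.903) and 0.690 (0.646 to 0.737). In 3 clusters with many reads LSD1 was near or above IgG while H3K4me2 was below it. On chromosome 1, 6 windows from 24618001 to 24624000 held 2655 LSD1, 1910 H3K4me2, 2090 IgG and 1571 Input reads, with ratios to IgG of 1.04 (0.977 to 1.10) for LSD1 and 0.677 (0.636 to 0.721) for H3K4me2. On chromosome 2, 3 windows from 22444001 to 22447000 held 1026 LSD1, 753 H3K4me2, 791 IgG and 533 Input reads, with ratios of 1.06 (0.963 to 1.16) and 0.706 (0.638 to 0.781). On chromosome 4, 3 windows from 79648001 to 79651000 held 760 LSD1, 586 H3K4me2, 533 IgG and 379 Input reads, with ratios of 1.16 (1.04 to 1.30) and 0.815 (0.723 to 0.918). None of these 12 windows touched a peak of any list, although single windows reached 753 LSD1 reads. The pattern was not limited to these clusters. On chromosome 13, 2 windows from 85266001 to 85268000 held 328 LSD1, 230 H3K4me2, 212 IgG and 157 Input reads. Their ratios to IgG were 1.26 (1.06 to 1.51) for LSD1 and 0.804 (0.664 to 0.974) for H3K4me2.

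Single windows past a 2-fold difference were few. Among the 264 windows with at least 20 LSD1 and IgG reads together, LSD1 was at least 2-fold over IgG in 3 (1.14%, 0.235 to 3.28), against 74.5% of all autosomal windows past that minimum. It was at least 2-fold under IgG in 10, against 0.277% of all. H3K4me2 was at least 2-fold over IgG in 9 of 260 windows (3.46%, 1.59 to 6.47), against 88.2% of all, and at least 2-fold under it in 49, against 0.235%. A window can pass that minimum through its ChIP reads alone, as the window of chromosome 1 from 138587001 did with 29 H3K4me2 and 3 IgG reads, so these counts are a description and the shares are not like for like. The median ratio of these windows was 0.871 for LSD1 and 0.698 for H3K4me2, against 2.88 and 4.13 over all windows past the minimum. For LSD1 the interval of the ratio lay above 1 in 12 windows, below 1 in 36 and across 1 in 216. For H3K4me2 it lay above 1 in 15, below 1 in 107 and across 1 in 138.

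Windows were ranked only among those with at least 20 reads of the ChIP library and IgG together, and windows under that minimum reached higher and lower ratios on few reads. For example, the window of chromosome 2 from 167977001 to 167978000 held 10 LSD1, 13 H3K4me2, 2 IgG and 12 Input reads, and 2 windows held no H3K4me2 read. Among the ranked windows, the 5 highest LSD1 to IgG ratios were on chromosomes 8, 17, 18 and 11. The first was the window of chromosome 8 from 19982001 to 19983000, with 74 LSD1, 32 H3K4me2, 18 IgG and 21 Input reads and a ratio of 3.35 (1.98 to 5.96). It touched an LSD1 peak and an H3K4me2 peak. Its near neighbour from 19984001 to 19985000 held 76 LSD1, 70 H3K4me2, 28 IgG and 24 Input reads and had a ratio of 2.21 (1.42 to 3.55). The window of chromosome 17 from 3082001 to 3083000 held 172 LSD1, 234 H3K4me2, 66 IgG and 26 Input reads, with ratios of 2.12 (1.59 to 2.87) for LSD1 and 2.63 (1.99 to 3.51) for H3K4me2. The window of chromosome 18 from 3639001 to 3640000 had a ratio of 1.99 (1.13 to 3.66) on 44 LSD1 and 18 IgG reads. The fifth was the window of the largest cluster from 3093001.

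For H3K4me2, among windows past the same minimum, the highest ratio, 7.16 (2.22 to 36.8), was that of the window of chromosome 1 from 138587001 to 138588000, on 12 LSD1, 29 H3K4me2, 3 IgG and 12 Input reads. It was followed by the window of chromosome 11 from 53954001 to 53955000, with 39 LSD1, 73 H3K4me2, 20 IgG and 35 Input reads and a ratio of 2.71 (1.63 to 4.69). The next 3 were the window of chromosome 17 from 3082001, that of chromosome 6 from 31546001 at 2.44 (1.01 to 6.72) and that of chromosome 11 from 3092001 at 2.29 (1.79 to 2.97). At the other end of the ranked windows, the 5 lowest LSD1 ratios ran from 0.357 to 0.413, in windows of chromosomes 9, 1, 11 and 4 with 14 to 77 IgG reads. The 5 lowest H3K4me2 ratios past the minimum ran from 0.226 to 0.302. The lowest of these, in the window of chromosome 11 from 3029001 to 3030000, rested on 34 LSD1, 18 H3K4me2, 59 IgG and 22 Input reads.

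The deposited peak lists covered a minority of the windows. An LSD1 peak shared at least 1 bp with 31 of the 300 windows (10.3%, 7.13 to 14.3), against 0.327% of all autosomal windows with an Input read. An H3K4me2 peak did so with 38 (12.7%, 9.12 to 17.0), against 2.56%. An IgG peak did so with 11 (3.67%, 1.84 to 6.47), against 0.00726%. In all, 40 windows touched a peak and 260 touched none. Of the 40, 24 lay near a chromosome start, 6 on the ribosomal repeat, 6 in other clusters and 4 alone. The 6 windows of the repeat touched peaks of all 3 lists, as did 5 further windows. Without the 77 windows at the start of chromosome 11 the shares were 5.38% for LSD1 peaks and 8.07% for H3K4me2 peaks. Without the ribosomal repeat the share for IgG peaks was 1.70%. The lists rest on the same reads as these counts, and windows of many reads have more of them to call a peak on.

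Few peaks were involved, but they were wide and held many reads. The windows touched 9 of the 5106 LSD1 peaks, which held 4.11% of the LSD1 reads in that list, with a median width of 1669 bp against 461 bp over the whole list. They touched 13 of the 32256 H3K4me2 peaks, with 0.420% of the H3K4me2 reads in the list and a median width of 1030 bp against 734 bp. They touched 8 of the 158 IgG peaks, with 81.4% of the IgG reads in the list and a median width of 384.5 bp against 76.5 bp. That share reflects mainly 1 locus. The 8 IgG peaks held 2724 IgG reads, and the 6 windows of the ribosomal repeat, all touching such peaks, held 2463. In the 9 LSD1 peaks the LSD1 level was 0.875 of the IgG level (0.839 to 0.912), against 5.39-fold over IgG (5.30 to 5.48) in the other peaks of the list. In the 13 H3K4me2 peaks H3K4me2 was at 0.852 of the IgG level (0.819 to 0.886), against 6.77-fold over IgG (6.73 to 6.80) in the others. These pooled ratios weigh the ribosomal repeat heavily. The 9 LSD1 peaks held 4640 LSD1 and 4324 IgG reads, the 13 H3K4me2 peaks 5356 H3K4me2 and 4660 IgG reads. The 6 windows of the repeat, touching both lists, held 2020 LSD1, 1528 H3K4me2 and 2463 IgG reads. Ratios without the repeat were not computed for these peaks, so a level below IgG is not shown for the peaks outside it. In other touched windows LSD1 to IgG was 1.79 over the 2 windows of chromosome 17 from 3081001 to 3083000. It was 0.622 in the window of chromosome 11 from 108873001. The 9 LSD1 peaks moved the ratio of the whole list, which was 4.45 (4.38 to 4.51) with them.

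The remaining clusters of at least 5 windows lay away from chromosome starts. The largest of them, on chromosome 8 from 19920001 to 19951000, comprised 17 windows with 258 LSD1, 213 H3K4me2, 244 IgG and 298 Input reads. Its libraries shared none of 950 starts among all 4, and IgG stood 6.94-fold over its autosomal mean. On chromosome 4, 8 windows from 145018001 to 145041000 held 82 LSD1, 72 H3K4me2, 100 IgG and 120 Input reads, and 7 windows from 146892001 to 146904000 held 113 LSD1, 97 H3K4me2, 88 IgG and 122 Input reads. There were 5 windows each in clusters of chromosome 9 from 123832001 to 123845000, of chromosome 2 from 27352001 to 27358000 and of chromosome 1 from 87481001 to 87494000. Their Input sums were 107, 105 and 68 reads in that order. None of these 6 clusters had a window that touched a peak.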

How the data were processed

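Per the labels, 36-base reads came from library fragments of about 200 bp. The authors deposited aligned reads on mm9 (build per the submitters' processing notes) with a count of 1 per line, and peak lists without scores for 3 libraries. The aligner, the peak caller and its control are not named in the labels or file headers. No start and strand repeated within a file.

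Windows, 5′ ends moved by 100 bp, clusters and overlaps of 1 bp were computed from these files. Ratios carry exact binomial intervals conditional on both counts, folds exact Poisson intervals and shares exact Clopper-Pearson intervals. Fold calls used a pseudocount of 0.5 and at least 20 reads of both libraries together. The functions were tested on simulated data. The windows and classes were chosen with earlier results of these data known. Regions named are the 10 windows and 10 clusters with the most Input reads, clusters of at least 5 windows, the 5 highest and lowest ratios to IgG, the ribosomal repeat and the windows at the threshold. Other regions, such as windows within the largest cluster, were picked with their values known. Positions count from 1. The gene table is for another assembly, so no gene, exon or intron was assigned. Scripts ran under Python 3.11.15 with scipy 1.17.1, numpy 2.4.6, pandas 2.3.3 and, for figures, matplotlib 3.10.9.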

Additional observations from a re-analysis of the deposited data

How the results depend on the processing

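No paired analysis was possible because there was 1 library per group. Over 16 results, 140 alternative values were computed, of which 82 stayed within the main interval (a count of clusters within 1.5 times), 54 moved and 4 changed side of 1. With starts not moved, windows from position 500, another overlap rule, a pseudocount of 5, a minimum of 40 reads or joining within 1 or 100 kb, every value stayed within those bounds. These are wide for the shares at least 2-fold over IgG, where LSD1 had 2.29% with starts not moved, against 1.14%, and H3K4me2 had 2.27% from position 500 and 2.31% with a pseudocount of 5, against 3.46%. With the top window of each cluster, LSD1 had 2.38%. Values below are in the order LSD1, H3K4me2, IgG where 3 are given. The IgG to Input ratio changed side with 1000 windows (0.833), without the ribosomal repeat (0.941) and with the top window of each cluster (0.974). The LSD1 to IgG ratio changed side when scaled to reads outside peaks and the set (1.00), where H3K4me2 to IgG was 0.926, and against Input they were 0.941 and 0.761. With 100 windows, folds over the autosomal mean were 57.5, 45.6 and 63.4, peak overlaps 17.0%, 19.0% and 7.00%, LSD1 2-fold over IgG 0%, clusters 27, the share near starts 62.0%, and shared top windows 72.0% for LSD1 and 43.0% for H3K4me2. With 1000 windows, ratios to IgG were 0.933 and 0.798, folds 9.87, 8.42 and 10.6, overlaps 3.80%, 7.60% and 1.30%, shares 2-fold over IgG 8.94% and 18.6%, clusters 670, near starts 14.6%, and shared top windows 15.8%, 7.90% and 30.5%. Without the repeat, ratios to IgG were 0.938 and 0.771, folds 24.9, 20.4 and 26.6, and overlap with IgG peaks 1.70%. With the top window of each cluster, the LSD1 to IgG ratio was 0.925, folds 26.2, 20.8 and 28.4, overlaps with LSD1 and H3K4me2 peaks 4.85% and 7.77%, near starts 9.71%, and shared top windows 35.0% for LSD1 and 63.1% for IgG. A count of clusters was not recomputed there. The following 2 were chosen after seeing the data. With the 281 windows above the tied count, folds were 28.6, 23.1 and 31.8. Without the start of chromosome 11, H3K4me2 to IgG was 0.694, its fold 20.9, overlaps 5.38% and 8.07%, near starts 21.1%, and shared top windows 33.6% for LSD1 and 61.0% for IgG. The cause of each shift was not tested. Collapsed copies cap counts, and windows near 12 Input reads carry wide counting error.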

Other observations

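The sex chromosomes were outside the choice of windows. On chromosome Y, 115 of 1010 windows with an Input read held at least 12 Input reads, and their sums were 4810 LSD1, 3877 H3K4me2, 5284 IgG and 5900 Input reads. On chromosome X, 41 of 71879 windows did, with 991 LSD1, 882 H3K4me2, 989 IgG and 973 Input reads. The LSD1 to IgG ratio in these windows was 0.742 (0.713 to 0.772) on Y and 0.817 (0.747 to 0.893) on X. The H3K4me2 to IgG ratio was 0.544 (0.522 to 0.567) on Y and 0.661 (0.603 to 0.724) on X. The 300 autosomal windows had 0.902 (0.885 to 0.920) for LSD1. By comparison the ratio on Y was lower beyond counting error, while the interval on X overlapped that of the autosomal windows.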
